A study of Caenorhabditis elegans with 2 samples.

Results

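The small nuclear RNA (snRNA) genes of Caenorhabditis elegans, the spliced leader genes sls-1 and sls-2 among them, were examined for regions bound by the tagged protein ALY-2 in a chromatin immunoprecipitation and sequencing (ChIP-seq) experiment. All 129 genes that the annotation of the WBcel235 assembly (ce11) gives the snRNA biotype on the 6 nuclear chromosomes were taken, out of 46890 annotated nuclear genes. They comprised 18 sls-2 genes, 12 sls-1 genes and 99 others, of which 12 were classed as U1, 19 as U2, 5 as U4, 11 as U5, 22 as U6 and 10 as SmY, and 20 were left unclassed. For each gene the highest region with a summit within 500 bp was read from a pooled list and from the list of each replicate, and called genes were those with a summit of the authors' optimal list within 500 bp.

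Both samples were biological replicates of 1 group, whole L3 larvae of mixed sex of strain OP217, with the genotype unc-119(ed3) III; ddIs172. The strain carries an insertion with aly-2 as its target, and the immunoprecipitation was directed at the eGFP fusion. No untagged or untreated sample was analysed here. Every measurement is from whole animals, so binding in 1 tissue and weaker binding in many cannot be told apart.

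Spliceosomal snRNAs form, with Sm or Lsm proteins, the particles that recognise and remove introns: U1 pairs with the 5′ splice site, U2 with the branch point, and U4, U5 and U6 join as a tri-snRNP. In nematodes, spliced leader RNAs donate a short leader to the 5′ ends of many mRNAs by trans-splicing; the leader of sls-1 (SL1) goes mainly to first genes and single genes, and the leaders of sls-2 (SL2) mainly to downstream genes of operons. RNA polymerase II transcribes the spliced leader, U1, U2, U4 and U5 genes and RNA polymerase III the U6 genes, and ALY-2 is a worm homologue of the mRNA export adaptor Aly/REF.

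The sls-2 RNAs are shown first because they carried the highest regions. In each line the capitals run from the annotated gene start up to the AG before the first GU of the intron-like part. This stretch was read as the leader, and whether each annotated start is the first base of the leader was not checked. By this reading sls-2.1, sls-2.2 and sls-2.3 share 1 leader, sls-2.8 and sls-2.10 each have another, and sls-1.10 is given as the sls-1 form. Their positions in ce11 are II:5844865-5844974 (plus strand) for sls-2.1, II:5543598-5543707 (plus) for sls-2.2, II:5544164-5544273 (minus) for sls-2.3, III:12250465-12250575 (plus) for sls-2.8, IV:9130721-9130829 (minus) for sls-2.10 and V:17120694-17120791 (minus) for sls-1.10.
sls-2.1: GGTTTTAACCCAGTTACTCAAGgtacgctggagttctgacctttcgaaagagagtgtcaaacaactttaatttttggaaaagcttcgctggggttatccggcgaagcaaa
sls-2.2: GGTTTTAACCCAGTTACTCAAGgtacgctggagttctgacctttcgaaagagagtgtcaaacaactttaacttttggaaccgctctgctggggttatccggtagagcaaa
sls-2.3: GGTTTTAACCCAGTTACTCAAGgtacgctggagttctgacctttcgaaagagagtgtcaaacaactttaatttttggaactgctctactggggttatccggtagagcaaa
sls-2.8: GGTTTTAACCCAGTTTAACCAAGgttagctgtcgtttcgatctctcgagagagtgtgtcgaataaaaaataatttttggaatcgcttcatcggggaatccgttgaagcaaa
sls-2.10: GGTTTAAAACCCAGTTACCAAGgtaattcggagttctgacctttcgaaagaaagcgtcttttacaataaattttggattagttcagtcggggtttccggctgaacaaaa
sls-1.10: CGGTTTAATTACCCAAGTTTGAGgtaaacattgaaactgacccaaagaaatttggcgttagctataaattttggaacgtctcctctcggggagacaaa

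The U1 gene with the highest region follows. In sup-6 (II:12944803-12944967, minus strand) the capitals mark the word that pairs with 5′ splice sites.
sup-6: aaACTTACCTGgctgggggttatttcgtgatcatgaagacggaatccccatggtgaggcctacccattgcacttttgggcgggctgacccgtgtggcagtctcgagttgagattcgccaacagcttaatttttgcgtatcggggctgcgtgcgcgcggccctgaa

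Genes with a called summit were found in both the spliced leader and the spliceosomal classes, and were spread unevenly among them. Of the 129 genes, 11 (8.53%) had an optimal summit within 500 bp, against 1.35% of all nuclear genes. They were 6 of the 18 sls-2 genes (33.3%), none of the 12 sls-1 genes and 5 of the 99 others (5.05%), and 1 gene each of U1, U2, U4, U5 and U6 made up the last number. No SmY gene, whose product is a small nematode RNA associated with trans-splicing, and no unclassed gene was called. The 11 genes had 10 distinct summits, since sls-2.2 and sls-2.3 shared one. Among other short noncoding genes, 7.8% of the 346 snoRNA genes and 2.12% of the 612 tRNA genes were called, and among protein-coding genes 2.38%. As a whole the snRNA genes thus had a share close to that of the snoRNA genes. No test was made of these counts, because there was 1 group and genes that share sequence or a region are not replicates.

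Below the optimal threshold the picture was less distinct. A pooled region of any height lay within 500 bp of 49 of the 129 genes (38.0%), against 31.1% of all nuclear genes. Among sls-2 genes 15 of 18 had one (83.3%), and among the 99 other genes outside both spliced leader families 34 (34.3%). Replicate 1 had a region at 56 genes, replicate 2 at 61 and both at 41, while 53 genes had none in any of the 3 lists. The highest 368 regions of both replicates, the number that the optimal list holds, included regions at 11 of the genes, against 0.584% of all nuclear genes. These 11 were 9 of the called genes, the U1 gene sup-39 and mir-1831, a short entry nested in sup-39.

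**Figure D1:**
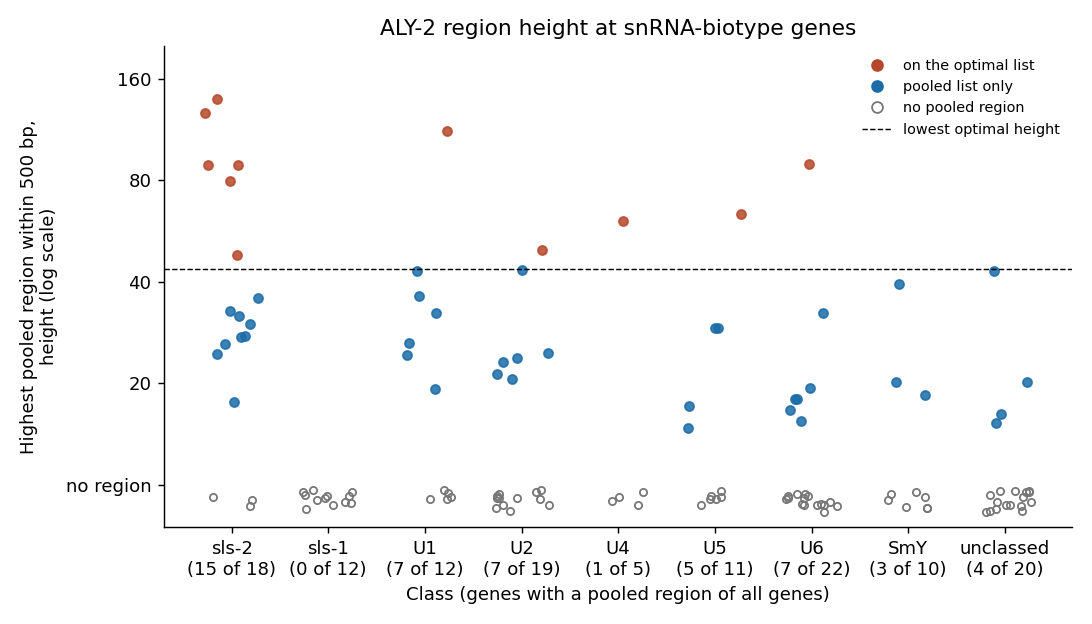
Height of the highest pooled region within 500 bp of each gene (vertical axis, log scale, as deposited), by class, with the number of genes that had a region out of all genes of the class; each point is 1 gene. Open circles on the lowest line are genes with no pooled region, and every sls-1 gene is one of these. Filled points of sls-2 reach from 17.7 to 139.5, and U1, U2, U4, U5 and U6 each have a single gene above the lowest optimal height of 43.6.

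The heights of sls-2 genes were compared next. Height is the deposited signal value of a region, and rank 1 is the highest of 17335 pooled regions, 30000 regions in replicate 1 and 26751 in replicate 2. At sls-2.4 (I:4172206-4172315, plus strand) the height was 139.5 in the pooled list, 78.2 in replicate 1 and 66.2 in replicate 2, with ranks 8, 2 and 22. At sls-2.1 it was 126.2, 57.5 and 78.6, with ranks 15, 14 and 12. Both genes were thus near the top of every list, with sls-2.4 higher in replicate 1 and sls-2.1 in replicate 2.

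The convergently placed neighbours sls-2.2 and sls-2.3, which lie 456 bp apart on opposite strands, shared a pooled region of height 88.8 and rank 39 (II:5543491-5543886). In replicate 1 they also shared a region, of height 40.9 and rank 50. In replicate 2 their windows held different highest regions, of height 49.2 and rank 47 for sls-2.2 and of height 42.5 and rank 71 for sls-2.3. The latter region (II:5543581-5544000) also overlapped sls-2.2 and not sls-2.3, from which its summit lay 373 bp away. The pooled summit lay inside sls-2.2 and 584 bp from the 5′ end of sls-2.3, so the call of sls-2.3 in the optimal list rests on a summit over its neighbour.

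At sls-2.8 the height was 79.6 pooled, 38.8 in replicate 1 and 37.2 in replicate 2, with ranks 52, 59 and 124. At sls-2.9 (I:13297877-13297985, plus strand) it was 48.2, 11.8 and 41.9, with ranks 259, 7406 and 78. The replicates were close at sls-2.8, whereas sls-2.9 was high only in replicate 2 and its rank in replicate 1 was far below the 368 highest.

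The remaining 12 sls-2 genes were uncalled. Among them sls-2.18 had the highest pooled region, of height 35.7 and rank 746, followed by sls-2.14 (32.8), sls-2.13 (31.7), sls-2.15 (29.9), sls-2.10 and sls-2.11 (27.5 each), sls-2.7 (26.2), sls-2.16 (24.4) and sls-2.6 (17.7). All of these except sls-2.6 had a region in both replicates, with heights of 8.48 to 17.2 in replicate 1 and 11.2 to 20.0 in replicate 2, and sls-2.6 had one in replicate 1 only (11.9). In replicate 1 sls-2.14 and sls-2.15 shared a region, its summit 16 bp from sls-2.14 and 471 bp from sls-2.15. No pooled region lay near sls-2.5, sls-2.12 or sls-2.17; the first of these had a region of height 11.5 and the second one of height 8.13 in replicate 2, and sls-2.17 had none in any list. The 15 sls-2 genes with a pooled region had a median height of 32.8 (17.7 to 139.5) and a median rank of 1016. The 34 genes outside both spliced leader families with one had a median of 24.0 (14.7 to 111.7) and a median rank of 3190, and the ranges overlapped over most of their extent.

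The called sls-2 genes also divided by leader, a comparison made after the heights were seen. A leader was read in all 18 genes, with 11 distinct sequences of 21 to 23 bases. The leader of sls-2.1 was found in 4 genes, sls-2.1 to sls-2.4, all called, with pooled heights of 88.8 to 139.5. Of the 14 genes with another leader, sls-2.8 and sls-2.9 were called, and 11 had a pooled region, with a median height of 29.9 (17.7 to 79.6). These 2 ranges did not overlap, but the 4 genes include the pair with a shared region, and 3 of the 4 are on chromosome II. Over the whole gene, sls-2.2 and sls-2.3 were 92.7% and sls-2.4 90.9% identical to sls-2.1, whereas the called sls-2.8 and sls-2.9 were 75.7% and 74.5% identical, no closer than uncalled genes such as sls-2.7 and sls-2.16 (80.0% each).

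**Figure D2:**
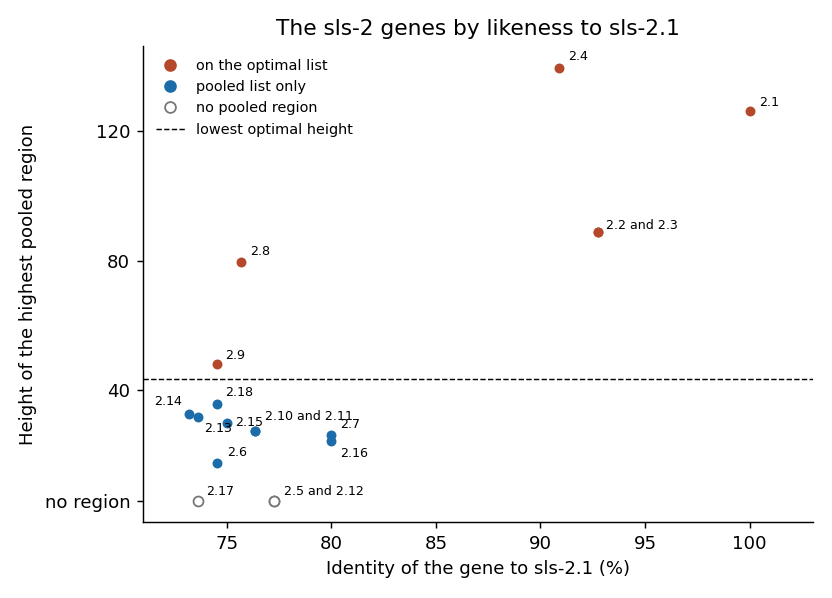
Pooled height of each sls-2 gene (vertical axis, as deposited) against the percent identity of its sequence to sls-2.1 (horizontal axis); each point is 1 gene, open circles have no pooled region, and the dashed line is the lowest optimal height. The 3 genes over 90% identical to sls-2.1 have heights of 88.8 to 139.5, and sls-2.8 (79.6) and sls-2.9 (48.2) are above the line at identities of 75.7% and 74.5%.

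The sls-1 genes had no region. All 12 lie in 1 array on chromosome V (17118154 to 17132107, a span of 13954 bp), 11 of them on the minus strand, repeated at a median step of 976 bp beside rRNA genes, 13 of which lay in the array or within 1000 bp of it. No region of any of the 3 lists overlapped the array. The nearest summits were 705 bp outside it in the pooled list (height 17.5), 683 bp in replicate 1 (9.42) and 742 bp in replicate 2 (9.61), heights close to the medians of their lists (18.1, 9.33 and 9.31). The 12 genes had 2 distinct sequences, 1 shared by 10 genes and 1 by the remaining 2. Of the 36-base words in the gene and in 250 bp to either side, the median share found once in the genome was 0%, against 90.6% within sls-2 genes and 100% on either side of them. The share within the gene was lower at sls-2.1 and sls-2.3 (41.3% each), sls-2.2 (53.3%) and sls-2.4 (78.7%). It was 100% at the called sls-2.8 and sls-2.9. Low shares were also found at uncalled genes, such as sls-2.12 (33.3%) and sls-2.10 and sls-2.11 (48.6% each). The part of repeated sequence in the heights of sls-2 genes was not tested. The treatment of reads with several matches is not stated in the labels or the records, so the count of 0 at sls-1 cannot be told apart from reads that could not be placed.

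Among the spliceosomal classes, the U1 gene sup-6 was highest. Its height was 111.7 pooled, 38.7 in replicate 1 and 80.1 in replicate 2, with ranks 21, 61 and 10. The pooled region (II:12944663-12944767) had its summit 70 bp beyond the 3′ end of sup-6, in an exon of F58G1.7. The U6 gene W05B2.8 (III:10989679-10989780, plus strand), which lies in an intron of the dynein heavy chain gene dhc-4, had heights of 89.1, 31.6 and 63.3 and ranks 38, 104 and 27 (III:10989609-10990004). Both were high in each list and higher in replicate 2.

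The U5 gene F38E11.10 (IV:9444642-9444763, plus strand) had a height of 63.5 pooled, 20.6 in replicate 1 and 58.4 in replicate 2, with ranks 108, 665 and 31. The U4 gene C52E4.8 (V:11980118-11980261, plus strand) had heights of 60.8, 25.8 and 40.6 and ranks 127, 242 and 89. The U2 gene F08G2.10 (II:13829305-13829491, minus strand) had heights of 49.7, 27.2 and 27.7 and ranks 235, 185 and 350. The U4 and U2 genes were among the 368 highest in both replicates, and the U5 gene in replicate 2 only.

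The nearest protein-coding genes were different for each summit. The summit of F38E11.10 lay in an exon of the small heat shock protein gene hsp-12.3, that of C52E4.8 was 240 bp past the 3′ end of the proteasome subunit gene rpt-1, and that of F08G2.10 lay 547 bp from the histone gene his-42. The summit of sls-2.4 lay 19 bp beyond the 3′ end of R12E2.11, that of sls-2.1 lay 286 bp beyond that of ZK1248.17 and that of sls-2.9 lay 271 bp beyond that of the topoisomerase gene top-1. The summit of sls-2.8 lay 110 bp upstream of Y75B8A.23, and for sls-2.2 and its neighbour sls-2.3 the nearest protein-coding gene, the insulin-like gene ins-13, was 823 bp from their common summit. In all, 8 of the 10 summits had a protein-coding gene within 500 bp and 3 lay inside one. The summit of F08G2.10 and that of sls-2.2 and sls-2.3 had noncoding RNA genes within 500 bp instead, and a tRNA gene was also near that of sls-2.9. Each of the 10 thus had another annotated gene within 500 bp, so the summits cannot be given to the snRNA gene alone.

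The lowest regions at called genes were those of sls-2.9 (48.2, rank 259) and F08G2.10 (49.7, rank 235), while the optimal list of 368 peaks ended at 43.6. Just outside the threshold were the U2 gene F08G2.11 (43.4, rank 378) and the U1 gene sup-39 with its nested entry mir-1831 (43.1, rank 393). They were followed by smy-1 (39.3, rank 552) and the U1 gene H27M09.6 (36.2, rank 711). In replicates 1 and 2 the height at sup-39 was 30.7 and 33.2 (ranks 117 and 196), so sup-39 was high in both without being called. At F08G2.11 it was 18.3 and 21.8, at smy-1 it was 18.2 and 22.6, and at H27M09.6 there was no region in replicate 1 and 1 of height 22.9 in replicate 2.

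Within the classes, most genes had low regions or none. Of the 12 U1 genes 7 had a pooled region, with a median height of 32.4, and of the 19 U2 genes 7, with a median of 23.8. Of the 11 U5 genes 5 had one (median 29.1), of the 22 U6 genes 7 (median 17.9) and of the 5 U4 genes only C52E4.8. The median of the U6 genes was close to that of all pooled regions, 18.1. Of the 10 SmY genes 3 had a region, with a median of 20.2, as did 4 of the 20 unclassed genes, with a median of 18.2.

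Repeated copies were frequent among these genes. The 129 genes had 94 distinct sequences, and 44 genes fell into 9 groups of identical sequence, 2 of them the sls-1 groups. In 4 of the other 7 groups exactly 1 gene was called: W05B2.8 among 14 identical U6 genes, F08G2.10 among 7 U2 genes, F38E11.10 of a U5 pair and C52E4.8 of a U4 pair. Of the 5 called genes outside the spliced leader families, 4 therefore had identical copies elsewhere, and sup-6 did not. Outside the spliced leader families, 4 of 32 genes with an identical copy (12.5%) and 1 of 67 without one (1.49%) were called, against 1.35% of all nuclear genes. The shares with any pooled region were 37.5% and 32.8%, with median heights of 21.6 and 24.4. In each set 3 genes had regions among the 368 highest of both replicates. Those without an identical copy were sup-6, sup-39 and mir-1831, and sup-39 and the nested mir-1831 had the same regions. The 67 genes include the 10 SmY and 20 unclassed genes, none of them called, so copies and class cannot be told apart here.

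Copies of 1 sequence differed widely. Of the 14 identical U6 genes, 6 had a pooled region, with heights from 15.4 to 89.1, and 7 had none in any list. The only other U2 gene of the group of 7 with a pooled region was R05D7.6, at a height of 23.8, and F38E11.11 and T11F9.15, the copies of the called U5 and U4 genes, had no pooled region. In W05B2.8, F08G2.10, F38E11.10 and C52E4.8 the share of 36-base words found once in the genome was 0% within the gene. Their pooled summits lay 27, 61, 90 and 33 bp beyond the 3′ end. The replicates did not all place them there: in replicate 2 the summit of C52E4.8 lay within the gene and that of W05B2.8 lay 32 bp upstream, and in replicate 1 that of F38E11.10 lay 387 bp beyond the 3′ end. Over all 129 genes the median share was 30.4% within the gene and 100% in the 250 bp on each side.

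The position of summits along the genes was described next. Of the 49 genes with a pooled region, 29 had the summit beyond the 3′ end (59.2%), 11 within the gene and 9 upstream, with a median 132 bp from the 5′ end and 18 bp beyond the 3′ end. The 49 genes had 46 distinct regions, and a shared region was counted for each of its genes. The share beyond the 3′ end was 60.7% in replicate 1 and 57.4% in replicate 2. Among snoRNA genes it was 30.7% in the pooled list, with 35.9% and 36.7% in the replicates, and among tRNA genes 35.0%, with 38.7% and 35.5%. These shares were compared after the values were seen and were not tested.

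In the pooled list, of the 7 U1 genes with a region, 6 had the summit beyond the 3′ end, at a median of 70 bp past it over all 7, as had 5 of 7 U2 genes (median 61 bp). The sls-2 summits were spread over 3 upstream, 6 within and 6 downstream positions in the pooled list. In the replicates 9 of 15 and 9 of 16 sls-2 summits lay downstream, shares close to the 25 of 41 and 26 of 45 of the genes outside the spliced leader families. Within 500 bp of the summit a protein-coding gene was found for 42 of the 49 genes. For the other 7 genes, 5 summits lay downstream, 2 within and none upstream.

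**Figure D3:**
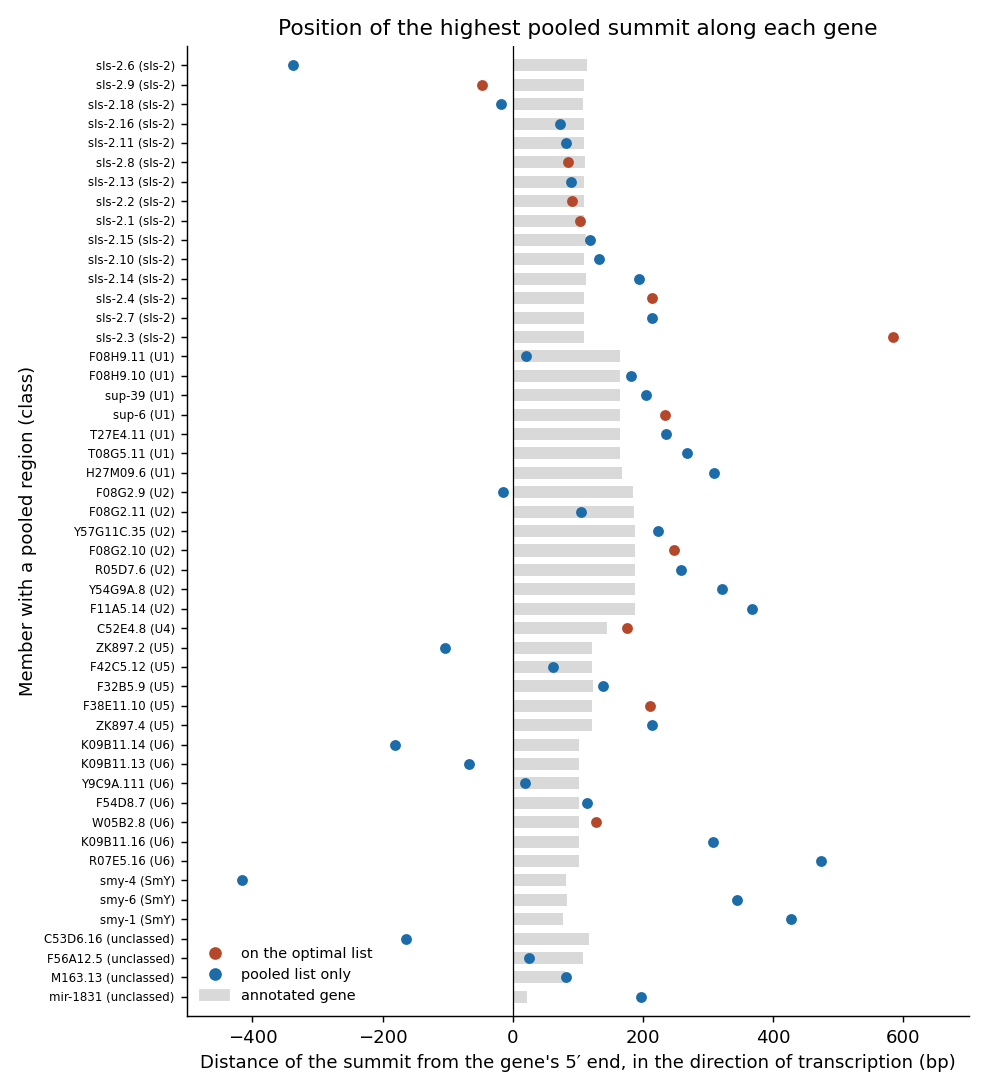
Distance of the highest pooled summit from the 5′ end of each gene in the direction of transcription (horizontal axis, bp), one line per gene with a pooled region, ordered by class; grey bars are the annotated genes. Points lie to the right of the bar for 29 of the 49 genes, among them sup-6 at 234 bp and W05B2.8 at 128 bp.

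Positions were also read by how much of each gene was repeated sequence. Of the 26 genes in which every 36-base word was found once in the genome, 9 had a pooled region, with 3 summits upstream, 3 within and 3 downstream (33.3% downstream). These 9 were sls-2.8, sls-2.9, sls-2.14, sls-2.15, sls-2.16, sls-2.18, smy-1, smy-4 and the unclassed F56A12.5. No U1, U2, U4, U5 or U6 gene was among them, so repeated sequence and class cannot be told apart in this comparison. Of the 102 genes with at least 1 repeated word, 39 had a region, with 6 summits upstream, 8 within and 25 downstream (64.1%). Among the 48 genes with no single-copy word, 14 had a region, with 8 summits downstream (57.1%). The median share of single-copy words was 100% on both sides of the genes, and the part of repeated sequence in the position of the summits was not tested.

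**Figure D4:**
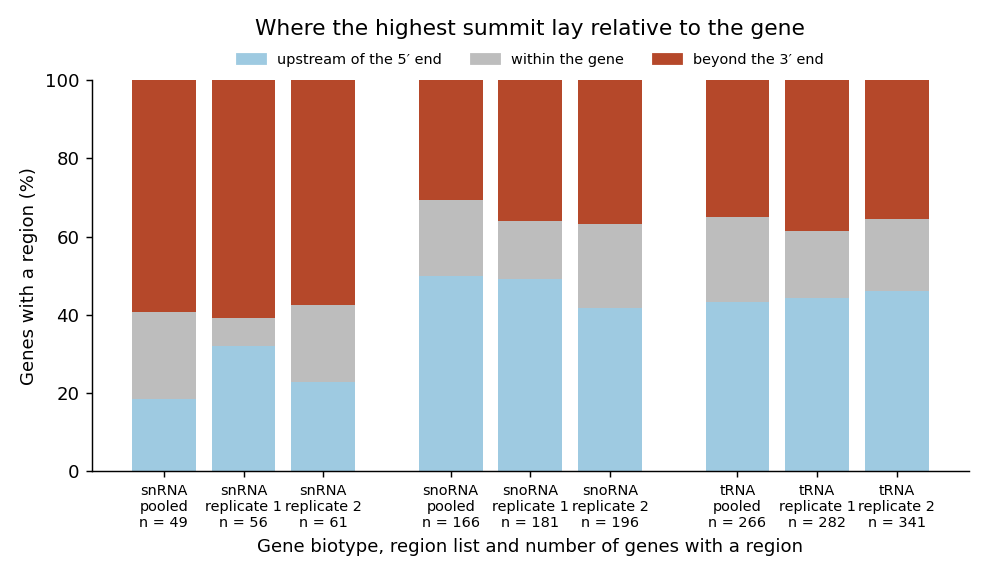
Percent of genes with a region whose highest summit lay upstream of the 5′ end, within the gene or beyond the 3′ end (stacked bars to 100%), for snRNA, snoRNA and tRNA genes in the pooled list and each replicate; the number of genes is under each bar. The part beyond the 3′ end is 57.4% to 60.7% for snRNA genes and 30.7% to 38.7% for the other 2 biotypes.

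The replicates were compared over the 41 genes with a region in both. Spearman's rho of the heights was 0.74 as a description over these genes, which share libraries, and 0.59 over the 14 sls-2 genes. Over 128 snoRNA genes it was 0.48, over 201 tRNA genes 0.26 and over all 12479 nuclear genes with a region in both 0.38. The height was greater in replicate 2 at 31 of the 41 genes (75.6%), against 51.2% of all nuclear genes, 63.3% of snoRNA genes and 62.7% of tRNA genes. Each height is that of the replicate's own highest region, which need not be the same region. At sls-2.9 the summit lay 98 bp beyond the 3′ end in replicate 1 and 28 bp upstream of the gene in replicate 2. Genes higher in replicate 1 included sls-2.4, sls-2.8 and F54D8.7, a U6 gene (21.6 in replicate 1 and 19.1 in replicate 2). The summits of the replicates lay a median of 165 bp apart, against 88.5 bp at snoRNA genes, 117 bp at tRNA genes and 445 bp at all nuclear genes. Of the 41 pairs of summits, 16 were within 100 bp of each other. The window took in the whole gene, and the largest gap was 77394 bp over all nuclear genes and 718 bp over the 41 genes. Gene length was not taken into account in the values for all nuclear genes, rho among them.

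**Figure D5:**
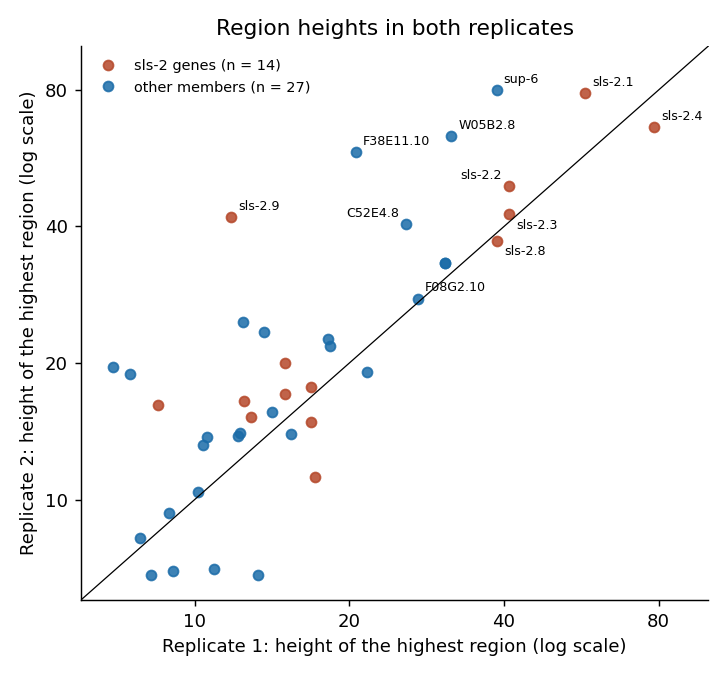
Height of the highest region in replicate 1 (horizontal axis, log scale) against replicate 2 (vertical axis, log scale) for the 41 genes with a region in both; each point is 1 gene, coloured by family. Most points (31 of 41) lie on the side of replicate 2, with sls-2.9 (11.8 and 41.9) and F38E11.10 (20.6 and 58.4) among those farthest from equal heights.

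The sequence upstream of the genes was then described, because it holds the elements that direct their transcription. The 100 bp upstream of 4 called genes are printed 5′ to 3′ on the strand of the gene, from RefSeq's WBcel235, with the words named below in capitals: sls-2.1 (II:5844765-5844864, plus), sls-2.8 (III:12250365-12250464, plus), sup-6 (II:12944968-12945067, minus) and W05B2.8 (III:10989579-10989678, plus).
sls-2.1 upstream: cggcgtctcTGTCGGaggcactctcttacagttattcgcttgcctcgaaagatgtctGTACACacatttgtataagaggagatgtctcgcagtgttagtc
sls-2.8 upstream: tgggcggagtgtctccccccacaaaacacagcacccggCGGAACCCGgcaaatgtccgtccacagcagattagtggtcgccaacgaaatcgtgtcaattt
sup-6 upstream: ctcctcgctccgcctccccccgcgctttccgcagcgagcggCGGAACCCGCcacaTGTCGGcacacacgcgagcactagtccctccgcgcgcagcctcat
W05B2.8 upstream: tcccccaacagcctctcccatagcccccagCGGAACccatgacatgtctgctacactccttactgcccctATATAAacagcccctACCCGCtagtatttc

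The same stretch is shown for the called U2, U4 and U5 genes, for comparison between classes: F08G2.10 (II:13829492-13829591, minus), C52E4.8 (V:11980018-11980117, plus) and F38E11.10 (IV:9444542-9444641, plus).
F08G2.10 upstream: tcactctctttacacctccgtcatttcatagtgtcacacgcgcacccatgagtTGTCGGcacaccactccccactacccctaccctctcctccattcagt
C52E4.8 upstream: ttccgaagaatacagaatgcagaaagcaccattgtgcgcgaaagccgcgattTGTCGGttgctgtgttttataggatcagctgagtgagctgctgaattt
F38E11.10 upstream: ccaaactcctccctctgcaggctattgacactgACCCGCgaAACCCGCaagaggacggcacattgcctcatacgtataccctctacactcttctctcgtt

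The 5 words of 6 bases held by the most of the 119 distinct member sequences, searched on the strand of the gene only, were AACCCG (35.3%, against 0.970% of the same stretch at all nuclear genes), TGTCGG (34.5% against 1.13%), ACCCGC (30.3% against 0.614%), GTACAC (28.6% against 1.08%) and CGGAAC (27.7% against 0.915%), and GCGGAA tied with the last of these (27.7% against 1.14%). AACCCG overlaps both ACCCGC and CGGAAC, and CGGAAC overlaps GCGGAA, which is not marked in the printed sequences. The words differed by class: TGTCGG was found at 12 of 18 sls-2, 7 of 12 U1 and 15 of 19 U2 genes, GTACAC at 18 of 19 U2 genes, and ACCCGC at 10 of 12 U1 and 10 of 11 U5 genes. ATATAA, a word of the TATA box, was found at 16 of the 22 U6 genes and 5 unclassed genes and at none of the other classes. Its median position was 30 bp before the annotated 5′ end, and that of TGTCGG was 47 bp before it. Neither ATATAA nor any of the tied or other words named here was found upstream of an sls-1 gene.

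The called genes held some of these words, and none of the words was found at all of them. TGTCGG was held by 6 of the 11 called genes, GTACAC by 4 and ATATAA by 1. Each of AACCCG, of its overlapping word ACCCGC, and of CGGAAC was held by 3 called genes. The called U2 gene, F08G2.10, was the 1 of the 19 U2 genes without GTACAC. A word in this window is a match of letters and not a measured site.

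The protein-coding genes of the same pathway were read from a list by name, 47 of which were found. Called by the same rule were 3 of them: the Integrator subunit genes ints-4 (height 71.6, rank 77) and ints-8 (43.8, rank 361), whose complex cleaves the 3′ ends of snRNAs, and the Lsm protein gene lsm-3 (53.8, rank 176). These were 2 of 11 Integrator and 1 of 7 Lsm genes, and 2.38% of all protein-coding genes were called. The window took in the whole gene, and ints-4 and ints-8 are 11646 and 15016 bp long, with summits 43 and 6391 bp from the 5′ end. Gene length was not taken into account in this comparison. None was called among 8 genes named snpc for the complex that activates snRNA genes, of which snpc-1.4 had the highest region (35.7, rank 750). None was called either among 7 Sm protein genes and 4 genes of the spliced leader particle and trans-splicing, of which sna-3 had the highest region (25.6, rank 2521). Also uncalled were 3 genes of the U1 and U2 particles, 2 of the U2 auxiliary factor and 5 of cap, assembly, export and TATA binding. A pooled region lay within 500 bp of 30 of the 47 (63.8%), against 46.2% of protein-coding genes, with a median height of 20.7 against 20.3.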

How the data were processed

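ChIP-seq was performed on 2 samples, biological replicates of 1 group per the labels, with library fragments of 150 to 350 bp. The authors deposited lists of regions with a signal value each, here called height; its scaling, the aligner, the caller and the treatment of reads with several matches are not stated in the labels or records. Per the records deposited with the files, each replicate's list came from its own alignment and 1 further file, and the pooled list from that file with both alignments. The 368 optimal peaks were the 368 highest pooled regions. The files hold no read counts, so depth is unknown and no interval from depth is given. Lists on ce10 were not used.

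Genes came from Ensembl release 115, gene names of identical copies from RefSeq through WormBase IDs (129 of 129 matched), and sequence from RefSeq's WBcel235. Classes came from the gene name (sls-1, sls-2 and SmY, the last added after the annotation was seen) or from 1 conserved word per class, with alternative forms of the word for U5. Genes with the words of no class or of several classes were left unclassed. Identical copies had the same annotated sequence. A word of 36 bases was single-copy when found once in both strands of the genome. A leader was read from the annotated gene start and ended at the AG of the first AGGT in the first 30 bases.

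Named genes were all sls-2 genes, every called gene, the 5 next highest, the listed pathway genes that were called or highest, and the nearest protein-coding gene of each called summit; any others were chosen for their values. The members, lists and comparisons were chosen with earlier results of these data known. No test was made. Alternatives changed the window, the overlap rule, the list, the handling of copies or the replicate used. The assignment of summits to genes was tested on simulated data. Python 3.11.15, numpy 2.4.6, scipy 1.17.1, biopython 1.88 and matplotlib 3.10.9 were used.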

Additional observations from a re-analysis of the deposited data

How the results depend on the processing

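Of 71 alternatives over 10 results, 62 kept the value, which for counts means within 1.5 times the count reported. For medians and shares it means within 1 SD of the values of the replicates. Called genes numbered 9 to 13 of 129, called sls-2 genes 5 or 6, called genes outside the spliced leader families 4 to 7, and called sls-1 genes 0 in each alternative run. The median height at sls-2 genes, 32.8, was 31.7 with a window of 250 bp and 35.7 with 1000 bp, and 16.8 to 17.4 without 1 replicate. The median at genes outside the spliced leader families, 24.0, was 22.2 with 1000 bp and 11.2 to 13.2 without 1 replicate. Heights in the replicate lists are on a lower scale than pooled heights, as their medians of 9.33 and 9.31 against 18.1 show. The share of summits beyond the 3′ end, 59.2%, was 54.3% with a window of 250 bp and 71.4% over the 7 genes with no protein-coding gene within 500 bp of the summit, alternatives added after the data were seen. Those 7 genes had 6 distinct regions. No paired analysis was possible because there was 1 group. Depth is unknown, and the part of repeated sequence in the lack of regions at some genes was not tested.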
